A study of Mus musculus with 12 samples.

Results

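Cadherins are calcium-dependent adhesion molecules that hold cells of the same kind together, and catenins are the cytoplasmic proteins that tie the cadherin tail to actin. The 10 genes described here were 6 cadherins (Cdh1, Cdh2, Cdh5, Cdh6, Cdh11 and Cdh13) and 4 catenins (Ctnnb1, Ctnna1, Ctnnd1 and Jup). They were taken by symbol from 54227 symbols in the table, and 10 of 10 were present. In the liver, E-cadherin (Cdh1) is the cadherin of epithelial cells such as those of the bile ducts, VE-cadherin (Cdh5) that of endothelial junctions, and N-cadherin (Cdh2) is carried by hepatocytes and mesenchymal cells. β-catenin (Ctnnb1) or its relative plakoglobin (Jup) binds the cadherin tail and hands it to αE-catenin (Ctnna1), which meets actin. p120-catenin (Ctnnd1) binds nearer the membrane and keeps the cadherin at the surface. β-catenin is also the transcriptional effector of Wnt signalling.

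The libraries came from dissociated livers of C57Bl/6 mice that carried the Sox9EGFP transgene and had been fasted for 16 h. All 4 groups shared strain, transgene and fast, and differed in the EGFP gate of the sorter: neg held EGFP-negative cells, sub the gate below low, and low and high the brighter gates. Each library was made from 12000 cells, with 3 libraries per population and 12 in all. Age and sex are not given in the sources used here, and no source says that the 3 libraries of a population came from separate animals, so the tests measure the spread between these libraries, which may be technical. EGFP marks cells by this transgene and not by lineage, so each gate can hold several cell types. In bulk libraries, fewer cells of a type and less RNA per cell cannot be told apart.

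Recovered depth was 8775387 to 15535588 reads per library, and 9039 to 12687 genes were above 0. The values are normalised counts, that is, reads divided by 1 factor per library. Marker genes gave the lineages against which the cadherins can be read. The 8 biliary markers summed to 21.25 to 412.5 in neg, 19770 to 35543 in sub, 65145 to 90171 in low and 61339 to 68357 in high, with Epcam, Spp1, Pkhd1 and Cftr at 0 in every neg library. The 8 endothelial markers ran the other way, with sums of 81508 to 116267 in neg, 22510 to 28489 in sub, 744.6 to 1800 in low and 519.5 to 898.2 in high. The 8 stellate/mesenchymal markers were high in both neg (12143 to 23004) and sub (16046 to 26638) and summed to at most 1003 in the libraries of low and high. Neg and sub therefore held endothelial and mesenchymal transcripts, sub also held biliary ones, and low and high were mainly biliary, with few of the others. The 8 hepatocyte markers summed to 616.4 to 951.4 in neg, 5320 to 7185 in sub, 13682 to 21672 in low and 16829 to 20749 in high, carried in sub, low and high mainly by Alb and Ahsg, while Cyp3a11 was at 0 in all 12 libraries. The 6 Kupffer/macrophage markers summed to 0 to 42.84 in neg and 0 to 406.8 in sub. Their sums were 748.8 to 1220 in low and 518.6 to 1288 in high, there mainly Csf1r. Csf1r was higher than neg in low and high (limma adjusted p 0.0162 and 0.0189). In low, Clec4f, Adgre1 and Vsig4 were at 0, while Cd5l reached 86.3 and Lyz2 78.7. In high, Adgre1 and Lyz2 were at 0, while Clec4f reached 163.5 and Cd5l 178.3. The 6 lymphocyte markers summed to at most 1108 in any library.

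Each step of EGFP was tested over 16128 genes with limma, and a gene passed at a Benjamini-Hochberg adjusted p under 0.05. Between sub and neg 1 of the 10 genes passed, Cdh1, which was higher in sub; over all tested genes 1.19% passed in either direction, 1.04% higher and 0.149% lower. Between low and sub 1 passed, Cdh5, which was lower in low, where 0.744% of all genes passed, 0.13% higher and 0.614% lower. Between high and low none of the 10 passed, and 0.0% of all tested genes did. Without adjustment 684 genes had a p under 0.05 in that comparison, of which Cdh2 was 1. The 0 over all genes was not stable: on 10 libraries limma called 60 genes, edgeR 74 and DESeq2 678, and limma without 1 of the 12 libraries called 0 to 35. None of these fits called any of the 10. Low against neg gave 3 (Cdh1 and Cdh6 higher, Cdh5 lower; 4.69% of all genes, with 2.55% higher and 2.15% lower). High against neg gave 4, the same 3 genes and Cdh13, which was lower (4.69% of all genes, with 2.44% higher and 2.25% lower). High against sub gave Cdh5 again (0.986% of all genes, with 0.118% higher and 0.868% lower). The F test over the 4 populations passed Cdh1, Cdh5 and Cdh6 (4.23% of all genes). All calls among the 10 were of cadherins and none was of a catenin. The median log2 fold change of the 10 was 0.60 for sub against neg, 0.30 for low against sub, -0.12 for high against low, 0.73 for low against neg, 0.75 for high against neg and 0.30 for high against sub, beside 0, 0, 0, 0, 0.13 and 0.20 over all tested genes.

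**Figure D1:**
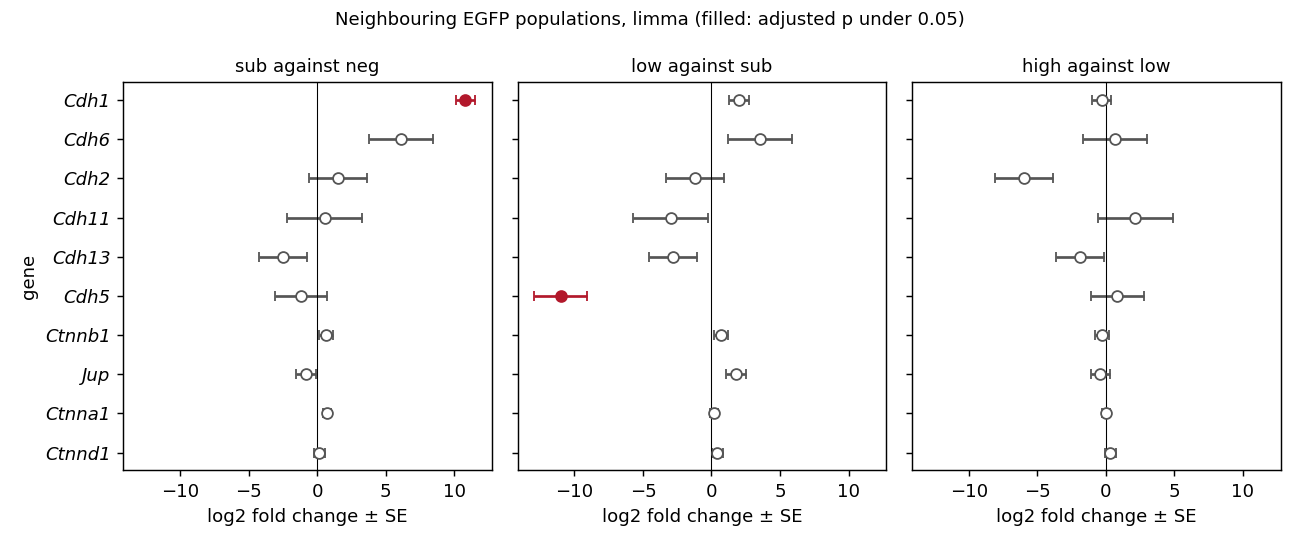
Log2 fold changes on the log2(normalised count + 1) scale with their SE for the 10 genes, 1 panel for each step between neighbouring EGFP populations, filled red where limma's adjusted p was under 0.05. Cdh1 passed for sub against neg at 10.81, Cdh5 for low against sub at -11.00, and no gene for high against low. The catenins have SEs of 0.30 to 0.72 and their largest step is that of Jup for low against sub, 1.80, and the cadherins other than Cdh1 have SEs of 1.77 or more.

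The epithelial cadherin, Cdh1 (chromosome 8, 106603351 to 106670246, plus strand, mm10), separated neg from the other populations. Its normalised counts were 1.4, 1.2 and 1.0 in neg replicates 1 to 3, each made of 1 or 2 reads. They were 7884, 2118 and 3635 in sub, 16645, 17484 and 13224 in low, and 13403, 13973 and 10677 in high. Neg was at or near 0 in every library, sub lay below every low and high library, and low and high overlapped. Pooled over libraries, the Cdh1 rate in sub was 4133 times that in neg, with an exact 95% interval of 1614 to 15169 that covers counting error only; sub 1 held 10698 of the 16192 reads in sub. For low the ratio was 13034 (5090 to 47838) and for high 10380 (4054 to 38098). On the log2(normalised count + 1) scale the difference was 10.81 ± 0.71 (SE) for sub against neg (limma adjusted p 1.34e-08), 12.81 ± 0.71 for low (7.02e-10) and 12.49 ± 0.71 for high (7.8e-10). Over the alternatives the adjusted p for sub ran from 6.77e-78 in edgeR to 0.187 in the fit of only these 2 populations, in which the log2 difference was again 10.81 and no gene of all those tested passed.

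Within the EGFP-positive gates the step in Cdh1 was smaller. Sub had a mean of 4546 ± 2989, low one of 15784 ± 2257 and high one of 12684 ± 1762 (SD, n = 3 each), so the low mean was 3.472 times the sub mean, and 5.488 times without sub 1. The log2 difference between low and sub was 2.0 ± 0.71 and did not pass in limma (adjusted p 0.274); edgeR on 10 libraries, without sub 3 and high 2, gave 0.0152, and the highest value over the alternatives was 0.513. High and low differed by -0.31 ± 0.71 (adjusted p 1). Epcam, another epithelial adhesion molecule, was the gene whose log2 values over the 12 libraries were most like those of Cdh1 (Pearson r 0.999), followed by Mtcl1 (0.998), a microtubule cross-linking factor, and Myh14 (0.997), a nonmuscle myosin heavy chain. Epcam held 3748, 591.9 and 1534 in sub, in the same order of libraries as Cdh1, and 0 in all 3 neg libraries. These correlations were ranked over 9605 genes with a mean of at least 100 and describe 12 libraries that fall into population groups and share their depth with every gene compared. The biliary marker sum was likewise lower in neg than in sub, and lower in sub than in low and high. Within populations the order of libraries differed: low 3 held the highest biliary sum of low, 90171, and its lowest Cdh1, 13224. Whether Cdh1 differed beyond the biliary marker sum was not tested.

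Cdh6 (chromosome 15, 13028701 to 13173675, minus strand), K-cadherin, known from kidney epithelium, passed as higher in low and in high than in neg, and did not pass in sub (adjusted p 0.358). Its normalised count was 0 in all 3 neg libraries and 1077, 309.1 and 0 in sub. In low it was 1495, 209.9 and 1704, and in high 1185, 1505 and 1188. High was even across libraries, while low and sub each held a library far below the others, and sub 3 had no read. Against 3 reads in each neg library, Cdh6 was at least 394.6-fold higher in low and at least 449.0-fold higher in high. The log2 differences were 9.67 ± 2.35 for low (adjusted p 0.0208) and 10.33 ± 2.35 for high (0.013), and both passed in limma. The low call lay close to the threshold: it was lost in 9 of the 12 fits that left out 1 library, without any one of the neg, low or high libraries (0.052 to 0.111), and in the fit of only the populations compared (0.0795), while the log2 difference stayed between 9.13 and 10.64 in the fits that lost it. The high call was lost without any one neg library or any one high library (0.0578 to 0.0809). Over all alternatives the adjusted p ran from 1.81e-12 to 0.111 for low and from 4.09e-11 to 0.0809 for high.

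Sub against neg did not pass for Cdh6, with a log2 difference of 6.12 ± 2.35 and an adjusted p of 0.358, and it passed without sub 3 (0.00604), the library at 0. Such a gap within a population was common in these libraries: genes with at most 3 reads in 1 library and a normalised count of at least 100 in another made up 28.8% of tested genes in high, 32.3% in low, 36.1% in sub and 35.7% in neg. Among the 10 genes this was the case for Cdh6 in sub and for Cdh11 in neg and sub. The genes most like Cdh6 were Sall1 (r 0.992), a zinc-finger transcription factor, Kif12 (0.99), a kinesin, and Snx7 (0.987), a sorting nexin, over the same 12 libraries. Each of these 3 was also at 0 in sub 3 and in all neg libraries.

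Promoter windows from RefSeq (GRCm38.p6, 250 bases before to 50 after the start) matched 4 of the 10 genes, Cdh6, Ctnnb1, Ctnnd1 and Jup. The 3 printed here contrast a gene at 0 in neg (Cdh6) with catenins present in every library (Ctnnb1 and Jup), and capitals mark each CG dinucleotide. Cdh6 lies at chr15:13173626-13173925 on the minus strand, Ctnnb1 at chr9:120933150-120933449 on the plus strand and Jup at chr11:100397741-100398040 on the minus strand.
Cdh6: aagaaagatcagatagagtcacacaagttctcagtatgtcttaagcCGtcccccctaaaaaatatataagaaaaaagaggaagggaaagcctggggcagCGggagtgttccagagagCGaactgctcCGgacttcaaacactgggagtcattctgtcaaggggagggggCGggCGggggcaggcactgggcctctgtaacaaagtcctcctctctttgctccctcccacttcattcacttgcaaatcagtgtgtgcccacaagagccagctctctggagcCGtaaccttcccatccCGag
Ctnnb1: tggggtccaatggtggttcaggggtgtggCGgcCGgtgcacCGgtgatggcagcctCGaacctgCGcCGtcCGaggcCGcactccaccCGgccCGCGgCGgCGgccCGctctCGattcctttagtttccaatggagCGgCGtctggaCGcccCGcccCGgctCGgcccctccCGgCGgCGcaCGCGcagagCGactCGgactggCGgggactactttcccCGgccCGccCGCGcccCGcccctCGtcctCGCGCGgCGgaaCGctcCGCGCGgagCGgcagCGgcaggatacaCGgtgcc
Jup: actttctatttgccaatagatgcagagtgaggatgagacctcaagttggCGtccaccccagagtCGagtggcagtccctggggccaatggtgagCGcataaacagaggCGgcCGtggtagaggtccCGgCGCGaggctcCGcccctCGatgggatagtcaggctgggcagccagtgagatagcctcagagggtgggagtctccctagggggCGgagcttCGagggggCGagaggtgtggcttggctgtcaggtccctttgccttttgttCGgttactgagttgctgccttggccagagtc
The windows hold 8 CG in Cdh6, 46 in Ctnnb1 and 14 in Jup, where the median over 32851 promoters of the same length is 7. Fewer CG were found in 51.4% of all promoters than in that of Cdh6, in 98.4% than in that of Ctnnb1 and in 63.7% than in that of Jup. Ctnnb1 has a second window with 51 CG, and the 2 windows of Ctnnd1 hold 30 and 3. These counts describe the sequence, and their relation to the levels was not tested.

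**Figure D2:**
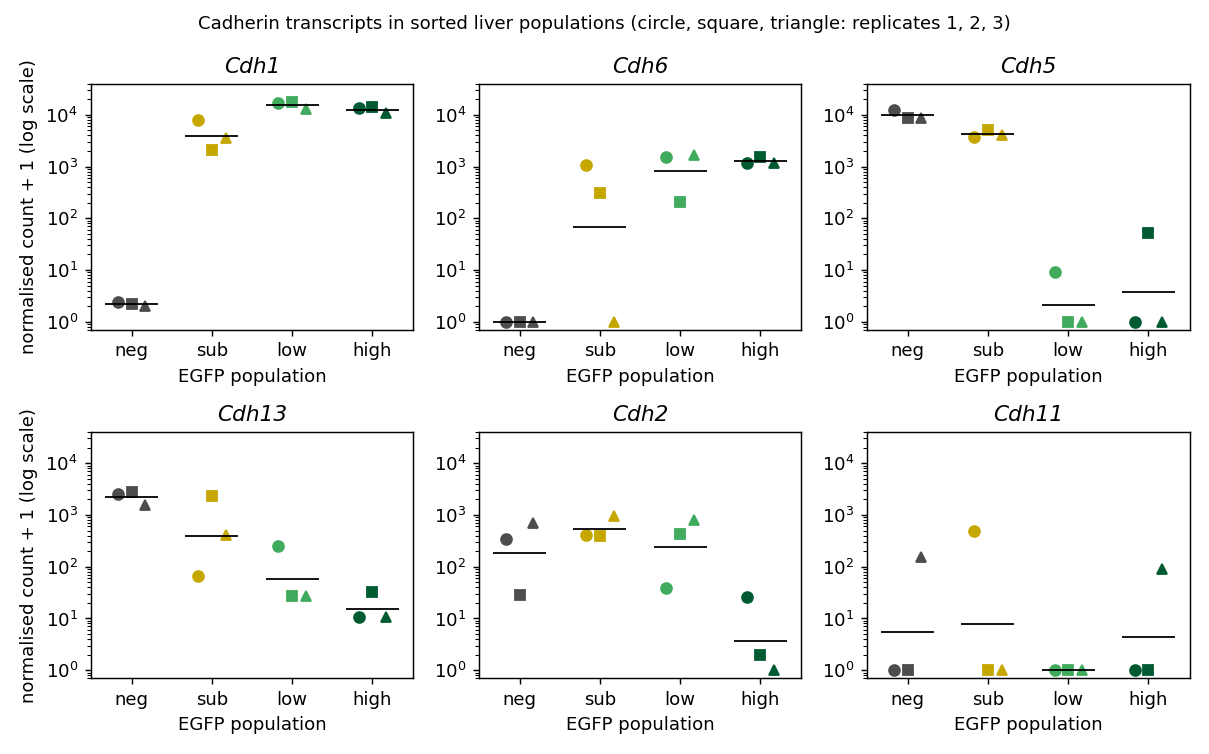
Normalised count + 1 (log scale) of the 6 cadherins in each of the 12 libraries by EGFP population, with 1 symbol for each replicate number and a bar at the mean of the log values. Cdh1 and Cdh6 are at or near 0 in neg and high in low and high, Cdh5 and Cdh13 show the opposite order, Cdh2 is lowest in high, and Cdh11 is above 0 in 3 libraries.

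The endothelial cadherin, Cdh5 (chromosome 8, 104101625 to 104144511, plus strand), was high in neg and sub and near 0 in low and high. Its normalised counts were 12116, 8857 and 8528 in neg and 3735, 5189 and 4036 in sub. They were 8.2, 0 and 0 in low and 0, 50.5 and 0 in high. Neg and sub did not overlap, and no library of low or high came within reach of either. The low mean was 1587-fold lower than the sub mean, with a log2 difference of -11.00 ± 1.92 and an adjusted p of 0.00985 in limma. The high mean was 256-fold lower than the sub mean (-10.17 ± 1.92, adjusted p 0.0134). Each of these means rests on 1 library, the others being at 0: the fold was at least 1723 without low 1 and at least 1712 without high 2, against 3 reads per library. Both calls against sub were lost without sub 2 (0.0611 and 0.0613), with log2 differences of -10.86 and -10.03. Fits of only the populations compared gave 0.175 and 0.185 with the same differences, and called 0 and 8 of all genes; the lowest values were 3.71e-29 and 5.37e-27 in edgeR. Against neg, Cdh5 was lower in low by -12.18 ± 1.92 (adjusted p 0.00058) and in high by -11.35 ± 1.92 (0.00113), and these 2 calls held in each of the 12 fits without 1 library.

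The sub mean of Cdh5 was 4320 ± 767.4, which is 43.9% of the neg mean of 9833 ± 1983 (SD, n = 3 each). The log2 difference was -1.18 ± 1.92 and did not pass (adjusted p 0.887). The same ratio was 56.7% for Pecam1, 69.9% for Erg and 101% for Lyve1. It was 20.7% for Kdr, 26.6% for Tek, 21.2% for Eng, 18.5% for Stab2 and 14.4% for Clec4g. The Cdh5 ratio thus lay below those of Pecam1 and Erg, a junction protein and a transcription factor of endothelial cells. It lay above those of Eng and the growth factor receptors Kdr and Tek. Sinusoidal markers fell on both sides, Stab2 and Clec4g below Cdh5 and Lyve1 above it. Over the 8 endothelial markers the median was 23.9% and the range 14.4% to 101%, the top being Lyve1, whose 3 sub libraries spread from 3.47% to 280% of the neg mean. Whether these genes differ from each other in this ratio, or Cdh5 changed beyond the endothelial marker sum, was not tested. Gata4 (r 0.984), a transcription factor of sinusoidal endothelial cells, and Sparcl1 (0.981), a matrix glycoprotein, had the patterns most like that of Cdh5. Gata4 held 1917, 1704 and 1908 in neg and 1332, 1114 and 1086 in sub, and of the low and high libraries it was above 0 in high 2 only, the library that also held the Cdh5 reads of high.

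Cdh13 (chromosome 8, 118283733 to 119324921, plus strand), T-cadherin, is held in the membrane by a lipid anchor, lacks the tail that binds catenins, and is known from endothelium. It held 2509, 2760 and 1575 in neg, 65.6, 2323 and 413.9 in sub, 247.9, 26.3 and 26.3 in low and 9.5, 31.3 and 9.8 in high. The neg libraries were all above those of low and high, and sub spread from within the low range to within the neg range. The high mean was 135.1-fold lower than the neg mean (236.2-fold without high 2), with a log2 difference of -7.17 ± 1.77 that passed (adjusted p 0.0223). That call was lost without neg 1 (0.0521), neg 2 (0.0576), high 1 (0.0581) or high 3 (0.056), and its lowest value was 1.32e-06 in DESeq2. Low against neg, -5.28 ± 1.77, did not pass (0.106) but did without sub 1 (0.0398) and in DESeq2 (0.00441). High against sub, -4.70 ± 1.77, did not pass in limma (0.316) and passed on 10 libraries in edgeR (0.0323) and DESeq2 (0.000166). Pcdh12 (r 0.952), a protocadherin of endothelial cells, was the gene most like Cdh13, followed by Hexa (0.946), a lysosomal hexosaminidase subunit, and Lrrc8c (0.93), a subunit of volume-regulated anion channels. In sub, Cdh13 and Cdh5 were both highest in replicate 2 and lowest in replicate 1, while Cdh1 was highest in replicate 1 and lowest in replicate 2.

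Cdh2 and Cdh11 gave no call. Cdh2 (chromosome 18, 16588877 to 16809246, minus strand) held 340.6, 26.9 and 694.4 in neg, 400.9, 382.4 and 969.5 in sub, 37.1, 427.4 and 799.7 in low, and 25.1, 1.0 and 0 in high. Neg, sub and low overlapped throughout, and every high library lay below all of them, if only just below neg 2. Cdh2 was the only one of the 10 genes whose low and high libraries did not overlap, against 7.34% of all tested genes, and the low mean was 48.4 times the high mean. That ratio rests on single libraries, at 26.69 without low 3 and at least 153.7 without high 1, where the other high libraries were at or under 3 reads. The log2 difference was -5.98 ± 2.12, with a limma p of 0.0108 that became 1 after adjustment; over the alternatives the adjusted p ran from 0.108 in DESeq2 to 1. High against sub was -7.15 ± 2.12 (0.137) and high against neg -5.65 ± 2.12 (0.156). The stellate/mesenchymal marker sums were 117.5 to 968.5 in low and 164.2 to 1003 in high, the hepatocyte marker sums 13682 to 21672 and 16829 to 20749, and the part of either in the Cdh2 difference was not tested. By library, low 3 had 799.7 of Cdh2, the lowest stellate/mesenchymal sum of the 12 libraries, 117.5, and the highest hepatocyte sum, 21672. Sub 3 had the highest Cdh2, 969.5, and the highest stellate/mesenchymal sum, 26638, with a hepatocyte sum of 7185, below every low and high library. Cdh2 was not tested against either sum. Lamc1 (r 0.914), the laminin γ1 chain, Map1b (0.896), a microtubule-associated protein, and Casp8 (0.873), an initiator caspase, were most like Cdh2. Cdh11 (chromosome 8, 102632095 to 102785642, minus strand), the OB-cadherin of fibroblasts, was above 0 in 3 libraries only, at 154.5 in neg 3, 489.3 in sub 1 and 87.4 in high 3. Its largest difference, low against sub, was -2.98 ± 2.75 (adjusted p 0.75). The gene most like Cdh11, Nap1l3 (r 0.967), was above 0 in the same 3 libraries and at 5.9 in low 1, so that its r rests on a few libraries; Gm28362 (0.854) and Gm17181 (0.83) came next.

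Because the cadherins differ in length, their levels were compared per kb of the longest coding transcript, from 3785 bases for Cdh13 to 8167 for Cdh6. Of the summed level of the 6 cadherins, Cdh5 made up 78.0 ± 2.73% in neg and Cdh13 19.2 ± 4.91% (SD, n = 3 each, as in the rest of this comparison). Cdh1 made up 93.1 ± 4.19% in low and 94.2 ± 0.832% in high, with Cdh6 next at 3.80 ± 2.86% and 5.24 ± 0.585%. Among these 6, each of these 3 populations thus had 1 dominant cadherin in every library, Cdh5 in neg and Cdh1 in low and high. Other cadherins were not part of the sum, such as Cdh3 and Cdh4. Their mean normalised counts in neg were 421.7 and 592.6, beside 354.0 for Cdh2. Sub had no single one: Cdh5 made up 30.8%, 51.8% and 47.2% of its 3 libraries and Cdh1 58.7%, 19.1% and 38.3%. Cdh1 led in sub 1 and Cdh5 in sub 2 and sub 3, so the order of their means, 43.3 ± 11% for Cdh5 and 38.7 ± 19.8% for Cdh1, lies within their spread. Cdh2 made up 5.08 ± 3.71% in sub, 2.44 ± 2.59% in neg, 2.42 ± 2.37% in low and 0.0564 ± 0.0924% in high, and Cdh11 less than 1% on average in each population. With the median transcript length in place of the longest, the Cdh5 share was 86.5% in neg and 55.3% in sub.

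**Figure D3:**
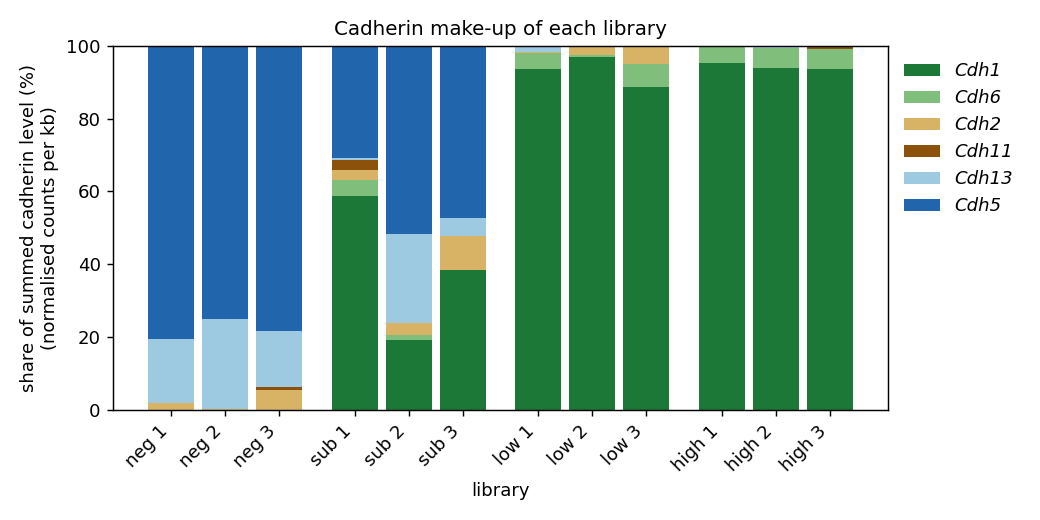
Share (%) of each of the 6 cadherins in their summed level, in normalised counts per kb of the longest coding transcript, for each of the 12 libraries; each bar adds up to 100%. Cdh5 makes up 75.1% to 80.5% and Cdh13 15.3% to 24.7% of the neg bars, Cdh1 makes up 88.7% to 97.0% of the low and high bars, and the sub bars hold all 3, with Cdh1 at 58.7% in sub 1 and 19.1% in sub 2.

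The 6 cadherins together were also summed, and the comparison of these sums depended on the transcript length used. With the longest transcript, neg had 3147 ± 548.8 normalised counts per kb, sub 2560 ± 448.8, low 3816 ± 391.1 and high 3037 ± 411.5 (SD, n = 3 each), and the neg libraries (2722 to 3766) overlapped those of each other population. With the median length, neg had the highest mean, 5225 ± 962.6, and its libraries (4534 to 6324) overlapped those of low (3866 to 4713) but lay above sub (3146 to 4115) and high (2961 to 3877). For the 4 catenins summed per kb of the longest transcript, neg had 2285 ± 307.0, sub 2986 ± 151.4, low 4428 ± 1057 and high 4209 ± 730.1. The neg libraries (2100 to 2640) lay below all others with this length, and with the median length too (6018 to 9298, against 10957 or more elsewhere). Sub (2812 to 3084) lay below low (3275 to 5350) and high (3685 to 5043) with the longest transcript, but with the median length it overlapped both (10957 to 12549 in sub, 11417 to 20080 in low, 12464 to 18530 in high). Ctnnb1 and Jup together, set against the 5 cadherins with a catenin-binding tail, gave a ratio that was 0.388 ± 0.0349 for neg, 0.488 ± 0.219 for sub, 0.581 ± 0.226 for low and 0.588 ± 0.105 for high. With the median length these ratios were 0.657 ± 0.219, 1.195 ± 0.354, 1.65 ± 0.65 and 1.683 ± 0.504, and neg then overlapped no other population, where it had overlapped sub and low. The median length includes short annotated transcripts of Ctnnb1 and Ctnna1 (800 and 764 bases), and the sums were not tested.

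The catenins were present in all 12 libraries, and no comparison passed for any of them. Ctnna1 (chromosome 18, 35118859 to 35254779, plus strand), which links the complex to actin, had the smallest SE of the 4, 0.30 on the log2 scale. It held 4128, 3167 and 2706 in neg, 6083, 4159 and 6180 in sub, 4971, 7181 and 6095 in low, and 6961, 5866 and 5696 in high. Neg lay below every other library, though only just below sub 2, and the 3 EGFP-positive populations overlapped. The log2 differences from neg were 0.71 ± 0.30 for sub (adjusted p 0.437), 0.87 ± 0.30 for low (0.125) and 0.91 ± 0.30 for high (0.103). Ctnnb1 (chromosome 9, 120929216 to 120960507, plus strand) held 2319, 2742 and 1008 in neg, 3164, 3558 and 2208 in sub, 2929, 7270 and 4857 in low, and 6278, 3423 and 2756 in high. Its neg libraries lay below all of those of low and high, and sub overlapped each of the others. Low against neg was 1.34 ± 0.49 (adjusted p 0.154) and high against neg 1.07 ± 0.49 (0.281). Ulk4, on the opposite strand of Ctnnb1, reached 511.3 in a library, and whether strand was used in counting is not given in the sources used here.

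Ctnnd1 (chromosome 2, 84600071 to 84650765, minus strand) held 2364, 2014 and 3437 in neg, 2858, 3502 and 2305 in sub, 4301, 2929 and 4475 in low, and 6982, 4849 and 3255 in high. Its populations overlapped in every comparison, and its largest log2 difference was 0.92 ± 0.41 for high against neg (adjusted p 0.265). Jup (chromosome 11, 100368958 to 100397763, minus strand), which serves adherens junctions and desmosomes alike, held 1674, 622.5 and 1785 in neg, 424.5, 1333 and 591.5 in sub, 1471, 3076 and 3146 in low, and 1115, 1992 and 2841 in high. It was the one catenin whose mean was lowest in sub, and its low libraries were all above those of sub. The log2 difference between low and sub was 1.80 ± 0.72 (adjusted p 0.362), and sub against neg was -0.82 ± 0.72 (0.731). Per kb of the longest transcript, Ctnna1 had the highest mean of the 4 catenins in every population and Ctnnb1 the next, and the libraries of these 2 overlapped in neg, low and high but not in sub; with the median length they overlapped in low and high only. The order of Jup and Ctnnd1 changed between populations. Adjacent catenins in that order were not tested against each other.

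**Figure D4:**
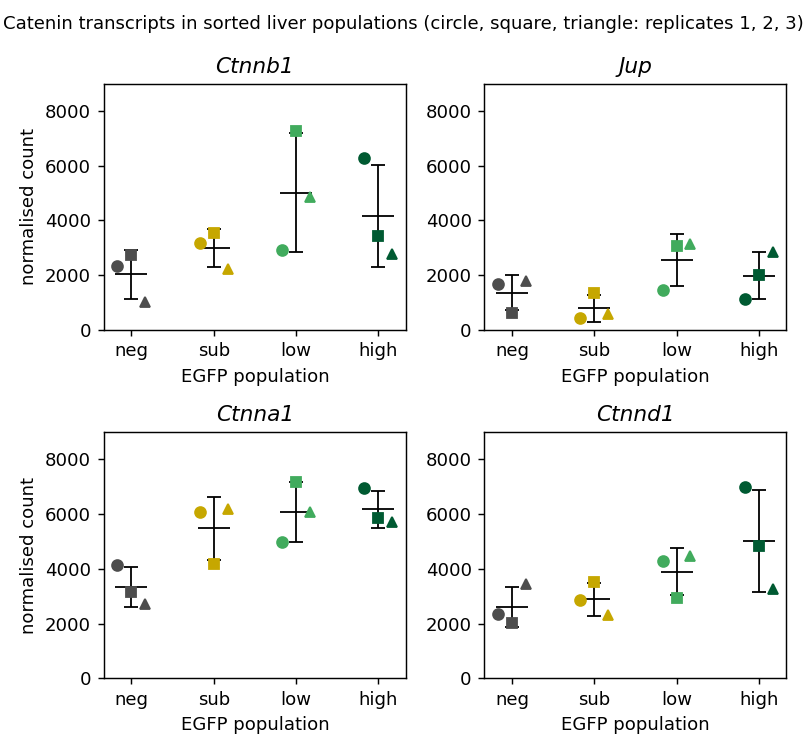
Normalised counts of the 4 catenins in each of the 12 libraries by EGFP population, on a linear axis from 0, with 1 symbol for each replicate number, the mean as a horizontal line and the SD (n = 3) as error bars. All 12 libraries are above 0 for each gene, neg has the lowest mean except for Jup, which is lowest in sub, and no difference passed the test.

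Over the 6 comparisons, the libraries did not overlap for 3 of the 10 genes in sub against neg (Cdh1, Cdh5 and Ctnna1; 9.68% of all tested genes), 3 in low against sub (Cdh1, Cdh5 and Jup; 11.7%) and 1 in high against low. In low against neg they did not overlap for 6 (Cdh1, Cdh5, Cdh6, Cdh13, Ctnnb1 and Ctnna1; 16.9%). In high against neg the count was 7, with Cdh2 in addition (18.8%), and in high against sub 5, all cadherins (13.1%). The comparisons share libraries, so these counts are not independent of each other.

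The position of the cadherins is also shared in part. Of the 6 cadherins, 4 lie on chromosome 8 within 16.7 Mb, in the order Cdh11, Cdh5, Cdh1 and Cdh13, with gaps of 1.32 Mb, 2.46 Mb and 11.61 Mb. Neighbours there did not share a pattern: Cdh5, highest in neg, lies between Cdh11, which was above 0 in 3 libraries, and Cdh1, which was at or near 0 in neg. Genes that overlap the members in the annotation were at most 9.784 in any library, except Ulk4.

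Other genes of cell junctions were read from lists drawn up by function. Desmosomes are the junctions of epithelia that anchor keratin filaments, and of 9 listed genes 8 were tested. For sub against neg 3 of the 8 were higher and none lower, for low against neg 4, and for high against neg 3, where 1.04%, 2.55% and 2.44% of all tested genes were higher; the list's median log2 fold change was 3.36, 7.50 and 8.20, beside 0, 0 and 0.13 over all genes. Desmoplakin (Dsp) held 109.2, 1.2 and 301.3 in neg, 12492, 9506 and 5744 in sub, 21359, 26707 and 24753 in low, and 17660, 23243 and 20355 in high. Its step between sub and neg, 7.71 ± 1.06 on the log2 scale, passed (adjusted p 0.00024) and was lost without sub 1 (0.0614). Desmoglein 2 (Dsg2, 7.80, adjusted p 0.000405) and periplakin (Ppl, 3.88, 0.00063) passed the same step; Dsg2 was lost without any one sub library (up to 0.0765) and Ppl in 5 of the 12 fits without 1 library (up to 0.106). All 3 were higher than neg in low and in high in each of the 12 fits. Plakophilin 2 (Pkp2) was at 0 in neg and higher in low (10.01, adjusted p 0.0269), a call kept in 4 of the 12 fits.

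Of 6 listed receptor phosphatases that bind cadherins 5 were tested, and 1 was higher in sub than in neg, while 2 were higher and 1 lower than neg in both low and high; Ptprk and Ptprm passed in no comparison. Of all tested genes 1.04% were higher in sub than in neg, 2.55% higher and 2.15% lower in low, and 2.44% and 2.25% in high. The list's median log2 fold change was -0.19 for sub against neg, 1.01 for low and 1.16 for high, beside 0, 0 and 0.13 over all genes. Ptprb, the vascular endothelial phosphatase VE-PTP that binds VE-cadherin, held 52001, 64963 and 48700 in neg, 13539, 16196 and 9314 in sub, 688.0, 971.1 and 252.3 in low, and 621.3, 218.3 and 76.0 in high. Its log2 difference between low and sub was -4.52 (adjusted p 0.00159, lost without sub 2 at 0.0611), the same direction as Cdh5, and its sub mean was 23.6% of the neg mean where that of Cdh5 was 43.9%. Ptprf (LAR), a phosphatase found with the E-cadherin and β-catenin complex, held 0, 0 and 1.0 in neg, 2869, 2512 and 2539 in sub, 6958, 7307 and 6349 in low, and 5871, 6565 and 6053 in high, and rose between neg and sub by 11.04 (adjusted p 3.59e-07, kept in 12 of 12 fits). Ptprj was higher in low (5.64, adjusted p 0.0259) and in high (5.95, 0.0181) than in neg, calls kept in 2 and 3 of the 12 fits.

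Of 12 listed repressors of Cdh1 and activators of epithelial genes, 11 were tested, and 2 were higher and 3 lower than neg in both low and high, with none called at any step between neighbours. Over all tested genes 2.55% were higher and 2.15% lower in low than in neg, and 2.44% and 2.25% in high. The list's median log2 fold change was -0.99 for low against neg and -1.82 for high, beside 0 and 0.13 over all genes. Grhl2, an epithelial activator of Cdh1, was at 0, 1.2 and 0 in neg, 116.4, 28.6 and 695.2 in sub, 886.1, 933.8 and 337.0 in low, and 1134, 749.9 and 1652 in high (low against neg 8.97, adjusted p 0.00744; high against neg 9.75, 0.00376; each kept in 12 of 12 fits). The splicing regulator Esrp1 was also higher (8.07, 0.0343, lost without low 3; 9.09, 0.0164). The Cdh1 repressor Zeb1 held 5666, 5143 and 2717 in neg, 2145, 2417 and 1627 in sub, 288.7, 0 and 0 in low, and 100.4, 29.3 and 0 in high. In sub, Zeb1 and Cdh1 were thus both present, as were the markers of endothelial and biliary cells. Zeb1 was lower in low and in high than in neg (adjusted p 0.0161 and 0.0352, kept in 3 and 2 of the 12 fits), as were Zeb2 (-6.63 and -5.87, 0.00435 and 0.0101, kept in 10 and 6) and Tcf4 (-2.78 and -2.93, 0.0259 and 0.0181, kept in 10 and 8). The endothelial and stellate/mesenchymal marker sums were lower in the same libraries, and their part in these 3 differences was not tested.

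The remaining lists held few calls, and their shares are to be read against the same percentages of all tested genes. Of 16 further cadherins, 8 were above 0 in a library, 4 were tested and 1 passed: Cdh4 held 1152, 464.7 and 161.3 in neg, 0, 27.5 and 0 in sub, and 0 in all libraries of low and high (low against neg -8.79, adjusted p 0.0258; high against neg 0.0254), lost without low 2 or low 3 (up to 0.0549) and without any one high library (up to 0.0558), respectively. Of 7 catenin relatives, 6 were tested and none passed in any comparison. Their median log2 fold change was 3.51 for low against neg and 2.44 for high, beside 0 and 0.13 over all genes. The 2 with the highest means were Pkp4, with means of 395.5, 1053, 1530 and 1588 from neg to high, and Ctnnal1, with 948.5, 1113, 536.1 and 624.7. All 12 nectin, afadin and actin linker genes were tested, with a median log2 fold change of 1.12 for low against neg and 1.25 for high, beside the same 0 and 0.13. Plekha7, which ties p120-catenin to microtubules, was higher than neg in low (7.04, adjusted p 0.0203, kept in 1 of 12 fits) and in high (7.60, 0.0118, kept in 7), and Vezt, a transmembrane protein of adherens junctions, in low (6.84, 0.0386, kept in 5).

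**Figure D5:**
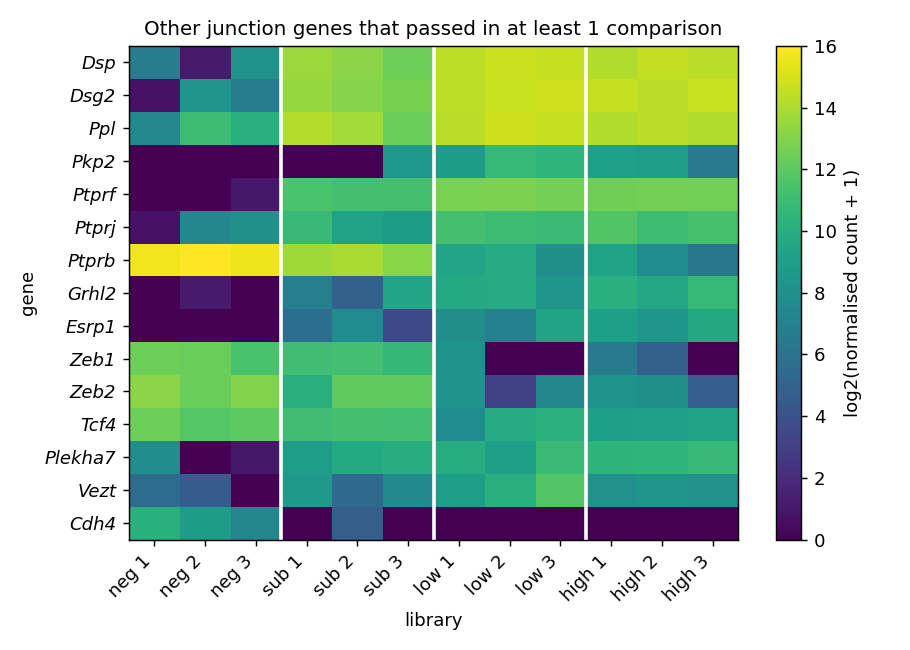
Log2(normalised count + 1) of the 15 genes from the junction and regulator lists that passed in at least 1 comparison, 1 row for each gene and 1 column for each of the 12 libraries. Dsp, Dsg2 and Ptprf are low in neg and high in the other populations, Ppl is lowest in neg but reaches 2037 normalised counts in neg 2, Ptprb, Zeb1, Zeb2 and Tcf4 run the other way, and Cdh4 is above 0 mainly in neg.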

How the data were processed

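RNA was extracted with the RNAqueous Micro kit, treated with DNase for 30 min and turned into libraries with a stranded, random-primed total-RNA kit for small inputs (SMARTer Pico v2), per the labels' protocols. The authors deposited a signal per gene and library, normalised counts for 54227 symbols in 12 columns. The submitters' processing notes name Salmon, DESeq2 1.26.0 and the build mm10, with no role or order; the annotation, and whether strand was used, are not given in the sources used here. In each column every value above 0 was a whole multiple of 1 step, within 0.01, so the signal was read as whole reads divided by 1 factor per library.

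Genes with a mean of at least 10 (16128) were tested on log2(normalised count + 1) with limma 3.58.1 in R 4.3.3 (eBayes with trend), fitted to the 12 libraries with no covariate beside population, two-sided, with Benjamini-Hochberg adjustment over all tested genes at 0.05. This scale understates changes of low genes, and near 0 the fitted fold depends on the pseudocount. Each SE rests on 1 spread per gene over all 4 populations, so it also carries the spread of populations outside the comparison. A population with at most 3 reads in every library was taken as at the floor; reads copied from 1 molecule are not independent, so floors and intervals cover counting error only. Count tests on the recovered reads (edgeR 4.0.16, quasi-likelihood, and DESeq2 1.42.0) used 10 libraries, leaving out sub 3 and high 2, where the step lay close to 1. Other alternatives were pseudocounts of 0.5 and 5, no filter and a mean of at least 100, equal totals, quantile normalisation, no trend, only the populations compared, the replicate number as a block, and each library left out in turn. Limma and edgeR were also run on simulated counts, and DESeq2 was not. The simulation did not model the gaps within populations described above, so it does not show how the tests behave on such genes. Gene positions and transcript lengths are from GENCODE M21.

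The members and lists were chosen with earlier results of these data known. Besides the 10 members, the text names the 3 genes most like each cadherin (1 of them is not reported here) and, from each list, up to 5 genes that passed in any comparison or otherwise the 2 with the highest mean.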

Additional observations from a re-analysis of the deposited data

How the results depend on the processing

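For sub against neg (1 member of the 192 genes that passed) the number of members that passed was 0 (of 0) when only the populations compared were fitted, 2 in edgeR (of 255), DESeq2 (of 1645) and limma on 10 libraries (of 188), where Cdh6 joined Cdh1, and 1 to 2 without each library in turn (of 149 to 317). For low against sub (1 of 120) it was 0 (of 0) with only these populations, 2 in edgeR (of 271), and 0 to 1 without each library, the 0 being without sub 2 (of 42). For high against sub (1 of 159) it was 0 (of 8) with only these populations, 2 in edgeR (of 269) and DESeq2 (of 1506), which added Cdh13, and 0 to 1 without each library, the 0 again without sub 2 (of 74). For low against neg (3 of 757) it was 2 (of 203) with only these populations, 4 in DESeq2 (of 1875) and 2 to 4 without each library (of 465 to 737). For high against neg (4 of 757) it was 2 to 4 without each library (467 to 645 of all genes in the fits with 2), and for the F test (3 of 682) 2 to 4 (of 500 to 675). Of the fits on single results, 1374 kept direction and side of the threshold, 26 turned in sign, 25 lost a call and 9 gained one. The signs that turned belonged to differences that did not pass. Cdh2 turned in low against sub in edgeR (0.11) and DESeq2 (0.11), with -2.05 to 0.14 without each library, and in low against neg under quantile normalisation (-1.36), with -1.05 to 1.64 without each library. Cdh5 turned in high against low in edgeR (-4.85), DESeq2 (-4.17) and limma on 10 libraries (-1.07), with -1.07 to 1.90 without each library. These 10 libraries leave out high 2, the only high library with Cdh5 above 0, and limma without high 2 alone gave the same -1.07. Cdh11 turned in high against neg in limma on 10 libraries (0.81), with -2.43 to 2.16 without each library, in sub against neg (-2.43 to 2.98) and in high against sub (-2.98 to 2.16). Without each library the sign also turned for Ctnna1 in low against sub (-0.03 to 0.30) and high against low (-0.11 to 0.16), for Cdh6 in high against low (-0.31 to 1.19) and for Ctnnb1 in high against low (-0.61 to 0.05). The cause was not tested. Limma on 10 libraries and the median transcript length, which moved the Cdh5 share to 86.5% in neg and 55.3% in sub and the Cdh1 share to 0.00599% in neg, were chosen after seeing the data.

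With the replicate number as a block, 1, 1, 0, 3, 4 and 1 members passed for sub against neg, low against sub, high against low, low against neg, high against neg and high against sub, and 3 in the F test, so the block changed no member count, while 180, 83, 1, 720, 715, 130 and 621 of all genes passed. The labels give 1 library of each population the same number and, in the description, the same tag, but do not say whether these mark an animal, a day or a batch. Deviations of same-numbered libraries from their population means correlated at -0.016 to 0.027 over 18 pairs (mean 0.009), with none above 0.1. Pairs of different number gave -0.045 to 0.023 (mean -0.004). Because many genes had gaps within a population, values this low cannot show whether libraries were paired. No pairing was assumed in the main fit because the labels do not state one. The median SE of 2.35 on the log2 scale over all tested genes limits what 3 libraries per population can show, so a difference that did not pass is not shown to be absent.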
